A study of Mus musculus with 14 samples.

Results

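Cytosolic ribosomal protein genes encode the proteins of the large (Rpl) and small (Rps) subunit of the ribosome that translates mRNA in the cytoplasm. They were taken from the deposited expression tables by their labels: Rpl or Rps and digits, with or without a closing a, x or l, or an l and more digits, plus Rplp0, Rplp1, Rplp2 and Rpsa. Kinases labelled Rps6k and labels holding -ps, which marks pseudogenes, were left out. The rule matched 96 labels for 87 genes, 54 of the large and 33 of the small subunit, of 48714 labels joined over all libraries. For the 5 genes listed in copies (Rpl10a, Rps10, Rps18, Rps28 and Rps4l) the copy with the highest mean was used. Of the 87 genes, 81 had a mean of at least 1 RPKM (reads per kilobase of gene, scaled to the library's total) and were tested, 50 of the large and 31 of the small subunit. Rps3a1, which encodes a small subunit protein, falls outside the rule because its label goes on after the a.

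The RNA came from haematopoietic stem cells (HSCs), which sit in the bone marrow and give rise to the blood lineages, of C57BL/6 mice. By their calcium the HSCs were sorted into [Ca2+]high cells (calcium-high) and [Ca2+]low cells (calcium-low), with 7 libraries a group, numbered 1 to 7, of 100 cells each. The labels name no genotype, treatment, age or surface gate for the 2 groups. They do not tell whether different libraries hold different animals, so p-values cover the spread between these libraries, which may be technical.

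Ribosomal proteins join ribosomal RNA in fixed proportions, and their genes are among the most strongly transcribed in dividing and growing cells. Many of their mRNAs start at the cap with a run of pyrimidines, the TOP motif, through which the kinase mTOR and the cap-binding protein Larp1 control translation. HSCs are known for a low rate of protein synthesis, and in people the loss of a functional copy of several of these genes causes Diamond-Blackfan anaemia, a failure of red cell production.

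The library totals behind the RPKM values are not stated. Inferred from the values and annotated gene lengths, they were 14.3 to 23.9 M reads in replicates 1 to 3 and 29.2 to 37.2 M reads in replicates 4 to 7. The numbers 1 to 3 are listed in the series apart from 4 to 7, and only the tables of replicates 4 to 7 hold 23 labels that had turned into serial numbers. Separate preparations are not stated. Of 10 HSC markers, 10 were above 0 in every library, with a summed level of 172 to 344 RPKM in calcium-high and 168 to 259 RPKM in calcium-low libraries. Calcium-low replicate 3 stood apart: 8 cell cycle markers summed to 256 RPKM there against at most 27.1 in the others, 8 neutrophil markers to 766 RPKM against at most 77.3, and 10 erythroid markers to 156 RPKM against at most 83.8. Lymphoid markers were low but not absent: 6 T and NK cell markers summed to 5.09 to 20.9 RPKM in calcium-high (median 12.03) and 12.8 to 34.5 RPKM in calcium-low libraries (median 23.4), and 6 B cell markers to 2.91 to 6.27 RPKM over all libraries. Of these, Cd3e, Cd3g and Ms4a1 were listed at 0 in all 14 libraries, and 6 stromal markers summed to at most 1.31 RPKM.

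Around the start of transcription, member genes held pyrimidine runs more often than genes in general. RefSeq (GRCm38.p6) gave start windows for 64 of the 87 genes, 76 windows in all. A run was counted as a C followed by at least 5 further C or T on the sense strand, beginning from 10 bases before to 30 bases after the start. Such a run stood in 60.5% of the members' windows and in 27.6% of 32851 windows of all genes. The 7 sequences below are shown because the results turn on these genes: Rpl41 and Rps12 had the highest levels, Rps6 was low, Rps26, Rpl35a and Rpl37a stand at the ends of the comparison, and Rpl22l1 differed between the sets of libraries. Each runs 5′ to 3′ on the gene's own strand from 20 bases before to 30 bases after the start, and capitals mark the run that begins first. Rps6 holds a further, shorter run downstream, left in lower case.
Rps12 (chr10:23787180-23787229, minus strand): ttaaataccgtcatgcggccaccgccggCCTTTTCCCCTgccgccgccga
Rps6 (chr4:86857338-86857387, minus strand): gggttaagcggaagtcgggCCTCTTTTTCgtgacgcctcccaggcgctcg
Rps26 (chr10:128626477-128626526, minus strand): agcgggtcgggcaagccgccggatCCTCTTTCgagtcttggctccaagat
Rpl35a (chr16:33056462-33056511, plus strand): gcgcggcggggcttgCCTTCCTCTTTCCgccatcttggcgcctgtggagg
Rpl22l1 (chr3:28805488-28805537, plus strand): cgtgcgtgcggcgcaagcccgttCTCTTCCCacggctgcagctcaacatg
Rpl37a (chr1:72711240-72711289, plus strand): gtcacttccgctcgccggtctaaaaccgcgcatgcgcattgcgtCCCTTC
Rpl41 (chr10:128549139-128549188, minus strand): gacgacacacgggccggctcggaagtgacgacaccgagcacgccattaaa
Where a gene had several annotated starts, the start with the nearest run was shown, so the positions below partly reflect that choice. In Rps6 and Rpl35a the run spans the annotated start shown. In Rps12, Rps26 and Rpl22l1 it lies a few bases after the start, and in Rpl37a it begins at the end of the window. The window of Rpl41 holds no such run, which says only that these letters are not there at the annotated start.

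Other start-site motifs were also counted in the 300 bases from 250 before to 50 after the start. The ETS family motif CCGGAAG, on either strand, stood in 34.2% of the members' windows and 8.86% of all windows. Its reverse strand reads as pyrimidines for most of its length, so it can overlap a run. The YY1 motif AAGATGGC, on either strand, stood in 10.5% of the members' windows and 2.75% of all. The TATA motif TATAAA, sought only in the 40 bases before the start, stood in 1.32% and 2.31%. Among tested members the difference between calcium-high and calcium-low, on the log2(RPKM + 1) scale, had a median of -0.10 in the 41 genes with a run and -0.13 in the 20 without.

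As a group the members were among the strongest signals in these HSCs. They made up 17.8% to 22.1% of the summed RPKM in calcium-high libraries, with a median of 19.2%, and 16.1% to 21.5% in calcium-low libraries, with a median of 20.6%. The groups overlapped over nearly their whole range, with the lowest share in calcium-low replicate 3 and the highest in calcium-high replicate 5. Because the genes are short, the same members held only 4.64% to 6.65% of the reads in listed genes.

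Among single genes, levels over the 14 libraries had a median of 199 RPKM, and 59 of the 81 tested members were above 100 RPKM. Among the highest were Rpl41, the shortest protein of the ribosome, at 857 RPKM, Rps12 at 850 RPKM, Rpl32 at 724 RPKM and the stalk protein gene Rplp1 at 706 RPKM. Only 4 tested members had a mean under 10 RPKM: Rps27l at 8.57, Rpl7l1 at 8.21, Rps6 at 6.05 and Rpl32l at 1.83 RPKM. Rps6, the small subunit protein that S6 kinases phosphorylate, ranged from 2.36 to 13.4 RPKM over all libraries, on 122 to 298 reads. The annotation calls Rpl32l a processed pseudogene.

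Paralogs known for tissue-restricted use stood far below their partners. Rpl3l, the muscle form of Rpl3, reached at most 0.0815 RPKM, while Rpl3 had a mean of 271 RPKM. Rpl39l, the testis form of Rpl39, was above 0 in calcium-low replicate 7 alone, at 0.125 RPKM, against a mean of 291 RPKM for Rpl39. Rpl10l and Rps4l were listed at 0 in every library, as were Rpl6l and Rps12l1, which the annotation calls processed pseudogenes. A count of 0 in a gene of 1 kilobase allows up to 3 reads, which is 0.0808 RPKM in the deepest and 0.210 RPKM in the shallowest library, by counting error alone.

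The paralogs detected in HSCs were not all minor. Rpl22l1 had a mean of 50.2 RPKM, beside 48.4 RPKM for Rpl22, a protein known for its part in lymphocyte development. The order turned between sets of libraries: in replicates 1 to 3 the means were 71.6 RPKM for Rpl22l1 and 47.7 RPKM for Rpl22, and in replicates 4 to 7 they were 34.2 and 49.0 RPKM. Rpl36al had 47.2 RPKM beside 71.8 RPKM for Rpl36a. Rpl7l1, which acts in ribosome assembly, and Rps27l stood at 8.21 and 8.57 RPKM, against 454 RPKM for Rpl7 and 585 RPKM for Rps27.

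Many of these genes have processed copies elsewhere in the genome, and how the authors' counting treated reads that match several places is not given in the sources used here. Of the 50-base windows of each member's transcripts, a median of 48.5% occurred in no other annotated gene (80 members). This share was under 20% for 17 members, and it was 1.35% for Rps27, 6.16% for Rpl5, 9.89% for Rps12 and 15.4% for Rps6, so their levels are uncertain. Of 318 pseudogene labels with -ps, 2 were above 0, and together they held 37.3 to 85.3 RPKM per library.

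No ribosomal protein gene was called different between calcium-high and calcium-low HSCs. By limma on log2(RPKM + 1), 0 of 81 members were called higher and 0 lower at an adjusted p under 0.05, where 0% of the 9921 genes tested were called in either direction. At an unadjusted p under 0.05 there were 0 members in both directions, beside 3.18% of all genes higher and 3.57% lower. In bulk RNA, fewer cells with a transcript and less of it per cell cannot be told apart.

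The intervals limit how large a difference could be. The 95% interval of the difference lay within 1 log2 unit of 0 for 81 of 81 members, and within 0.5 for 44. The widest bounds were -0.998, for Rps26, and 0.929, for Rpl5. In the fit that takes the replicate number as a block, limma again called 0 of 81 members. Of all genes, 0.484% were called higher and 0.433% lower. There the interval was -0.86 to 0.02 for Rps26 and -0.27 to 0.20 for Rpl5. With the block, 1 member (Rpl37a) was higher and 2 (Rpl32 and Rpl35a) were lower at an unadjusted p under 0.05, beside 5.84% and 8.04% of all genes. By limma-voom on the reads recovered from the RPKM values, 0 of 81 members passed, 3 had an unadjusted p under 0.05, and 5.51% of all genes were called higher and 2.11% lower.

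**Figure D1:**
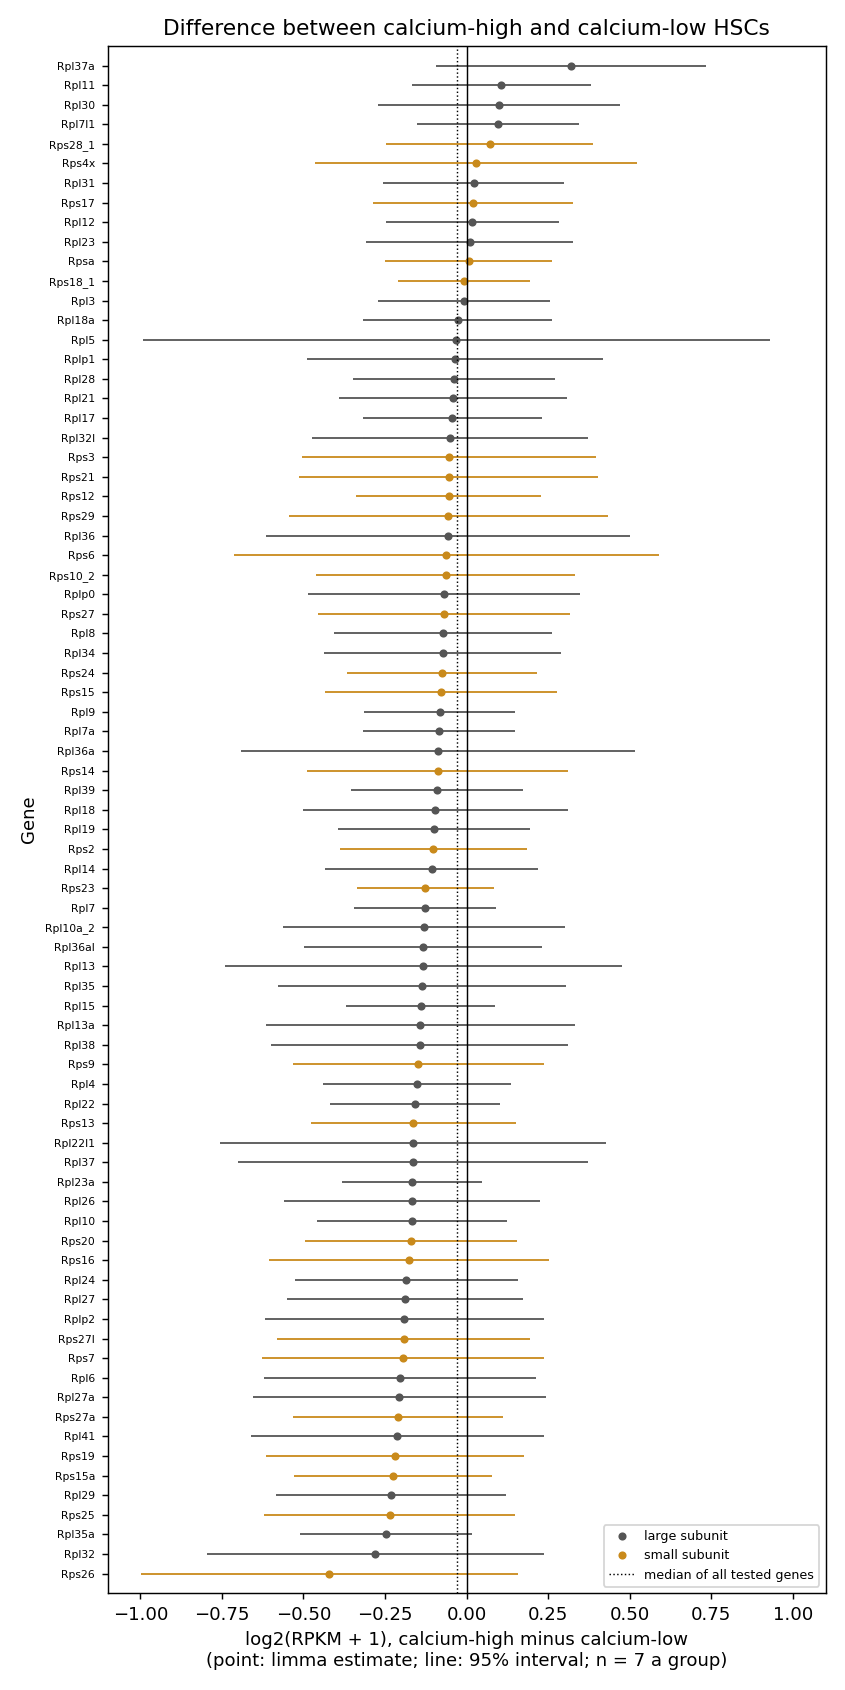
Difference between calcium-high and calcium-low libraries for 78 of the 81 tested ribosomal protein genes, in log2(RPKM + 1), with the limma estimate as a point and its 95% interval as a line (n = 7 a group); grey marks the large and ochre the small subunit, and the dotted line is the median of all tested genes, -0.03. The estimates run from -0.42 for Rps26 to 0.32 for Rpl37a, and every interval crosses 0.

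Most estimates lay slightly below 0. They were negative for 69 of 81 members, or 85.2%, beside 57.8% of all tested genes, and the median was -0.10 beside -0.03. Per subunit, 43 of 50 large and 26 of 31 small subunit genes had a negative estimate, with medians of -0.10 and -0.08. After median-of-ratios scaling 66 of 81 estimates were negative, with a median of -0.07 beside -0.005 for all genes. After upper-quartile scaling 60 were negative, with a median of -0.04 beside 0.01. With any 1 library left out, 53 to 76 were negative. The direction depended on replicate 1. Without both libraries of replicate 1, in the fit with the block, 42 of 81 estimates were positive and the median was 0.01, as was that of all genes. Leaving out calcium-low replicate 1 alone gave 28 positive estimates and a median of -0.04, beside 0.00 for all genes. By limma-voom 42 of 81 estimates were positive, with a median of 0.00 beside 0.07.

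Of large subunit genes, Rpl37a had the highest estimate. Its level was 143 to 232 RPKM in calcium-high libraries, with a median of 197, and 104 to 305 RPKM in calcium-low libraries, with a median of 150. Calcium-low replicate 3 was the highest of all 14, and the groups overlapped, although Rpl37a was higher in calcium-high in 6 of 7 pairs of libraries with the same number. The difference was 0.32 ± 0.20 (SE) on the log2(RPKM + 1) scale (limma adjusted p = 0.876, and 0.332 with the replicate block). In the fit with the block and without replicate 3, Rpl37a was the only member called, at 0.46 (adjusted p = 0.0457), where 1.65% of all genes were called higher. With the block and any other replicate number left out, 0 members were called.

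Rpl32, one of the most abundant members, pointed the other way. It stood at 382 to 925 RPKM in calcium-high libraries, with a median of 697, and at 468 to 1084 RPKM in calcium-low libraries, with a median of 916. In both groups replicates 1 to 3 were below replicates 4 to 7, so the groups overlapped widely, yet calcium-low was higher in all 7 pairs. The difference was -0.28 ± 0.24 (SE; limma adjusted p = 0.975), and with the block its SE was 0.11 (adjusted p = 0.265).

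Rpl32, Rpl7, Rpl23a and Rpl15 were the 4 members lower in calcium-high in all 7 pairs, a pattern that 3.02% of all genes had. Rpl15 was named after its values were seen. Rpl7, a large subunit protein, was at 378 to 489 RPKM in calcium-high and 394 to 507 RPKM in calcium-low libraries, with medians of 451 and 485. Rpl23a, which lies at the exit of the peptide tunnel, was at 364 to 437 RPKM, median 419, against 431 to 594 RPKM, median 440. Only 1 of the 7 calcium-high libraries lay inside the calcium-low range of Rpl23a, and the difference was -0.17 ± 0.10 (SE; limma adjusted p = 0.865). In 0 members were all libraries of one group above all of the other, where 0.141% of all genes were separated in that way, and 0 members were higher in calcium-high in all 7 pairs, beside 2.49%.

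Rpl35a, a Diamond-Blackfan anaemia gene, had the smallest p of all members without the block. It stood at 25.0 to 41.7 RPKM in calcium-high libraries, with a median of 33.1, and at 33.4 to 50.8 RPKM in calcium-low libraries, with a median of 39.9. Calcium-high replicate 5, where most members were high, was its lowest library. The difference was -0.25 ± 0.12 (SE; limma adjusted p = 0.788, and 0.346 with the block).

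Rpl5 and Rpl11 form a particle with a small ribosomal RNA that binds Mdm2, the ubiquitin ligase of p53. Rpl11 was at 89.0 to 128 RPKM in calcium-high libraries, median 110, and 81.6 to 139 RPKM in calcium-low libraries, median 99.97. Its difference was 0.11 ± 0.13 (SE; limma adjusted p = 0.991). Rpl5 was at 61.9 to 227 RPKM, median 73.3, and at 55.5 to 280 RPKM, median 68.8. In both groups its 3 high libraries were replicates 1 to 3, and the difference was -0.03 ± 0.46 (SE; limma adjusted p = 0.999). With the replicate block its SE was 0.11 (limma adjusted p = 0.931).

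The stalk proteins recruit translation factors to the large subunit. Rplp0 was at 254 to 614 RPKM in calcium-high and 312 to 521 RPKM in calcium-low libraries, with medians of 471 and 463. Rplp1 was at 429 to 1121 and 480 to 822 RPKM, with medians of 699 and 743. Rplp2 was at 205 to 467 and 232 to 441 RPKM, with medians of 263 and 334. For each of the 3 genes calcium-high replicate 5 was the highest library of all, and the differences were -0.07, -0.04 and -0.19 (limma adjusted p of 0.998, 0.998 and 0.991). Rpl38, known for its part in translation of Hox mRNAs, was at 72.6 to 181 RPKM, median 109, and 82.0 to 188 RPKM, median 122, with a difference of -0.14 (limma adjusted p = 0.992).

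Of small subunit genes, Rps26, which lies at the mRNA exit and is a Diamond-Blackfan anaemia gene, had the lowest estimate of all members. Its level was 28.2 to 81.1 RPKM in calcium-high libraries, with a median of 48.2, and 35.4 to 107 RPKM in calcium-low libraries, with a median of 65.7. The lowest 3 calcium-high libraries were replicates 1 to 3 and the highest library was calcium-low replicate 1. The difference was -0.42 ± 0.27 (SE; limma adjusted p = 0.880, and 0.392 with the block), higher in calcium-high in 2 of 7 pairs. It was -0.86 in replicates 1 to 3 alone and -0.09 in replicates 4 to 7 alone.

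Rps19, the gene most often lost in Diamond-Blackfan anaemia, and Rps14, known from the anaemia of a myelodysplastic syndrome, shared their highest library. Rps19 was at 90.5 to 173 RPKM in calcium-high libraries, median 129, and 109 to 258 RPKM in calcium-low libraries, median 135. Rps14 was at 250 to 534 RPKM, median 322, and 260 to 647 RPKM, median 356. It was calcium-low replicate 1 for both genes, and the other 6 calcium-low libraries lay inside the calcium-high range. The differences were -0.22 ± 0.19 and -0.09 ± 0.19 (SE; limma adjusted p of 0.972 and 0.998).

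Negative estimates of the small subunit with small p values were also those of Rps15a and Rps25. Rps25 was at 260 to 551 RPKM in calcium-high libraries, median 450, and 311 to 523 RPKM in calcium-low libraries, median 502, and Rps15a at 22.4 to 34.3 RPKM, median 27.4, and 25.8 to 48.1 RPKM, median 30.6. For both genes the groups overlapped, and the limma adjusted p was 0.948 for Rps25 and 0.876 for Rps15a.

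The other small subunit genes named here were not called either. Rpsa, which is also a laminin receptor, was at 259 to 448 RPKM in calcium-high libraries, median 294, and 284 to 339 RPKM in calcium-low libraries, median 308. Rps27a, made as a fusion with ubiquitin, was at 143 to 172 RPKM, median 157, and 148 to 321 RPKM, median 157. Rps6 was at 3.05 to 8.95 RPKM, median 5.45, and 2.36 to 13.4 RPKM, median 4.41. The intervals of Rpsa, Rps27a and Rps6 all held 0, at adjusted p values of 0.928 to 0.999.

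Within most replicate numbers the majority of members shared a direction, which differed between numbers. In pair 4 they split, with 41 of 81 higher in calcium-high and 40 lower. The median difference of the 81 members was -0.68 in pair 1, -0.19 in pair 2, -0.23 in pair 3, 0.01 in pair 4, 0.28 in pair 5, 0.10 in pair 6 and -0.05 in pair 7. The medians of all tested genes were -0.25, -0.11, -0.22, 0.02, 0.12, 0.16 and 0.10. Pairs 1 to 3 were thus on the low side for members and for genes in general, and the members stood furthest from all genes in pair 1. The members' median minus that of all genes was -0.43 in pair 1, 0.16 in pair 5 and -0.16 in pair 7. In the other pairs it was -0.08 to -0.01, close to the shift of genes in general. Members higher in calcium-high numbered 3, 9 and 7 of 81 in pairs 1 to 3, and 41, 74, 61 and 26 in pairs 4 to 7.

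**Figure D2:**
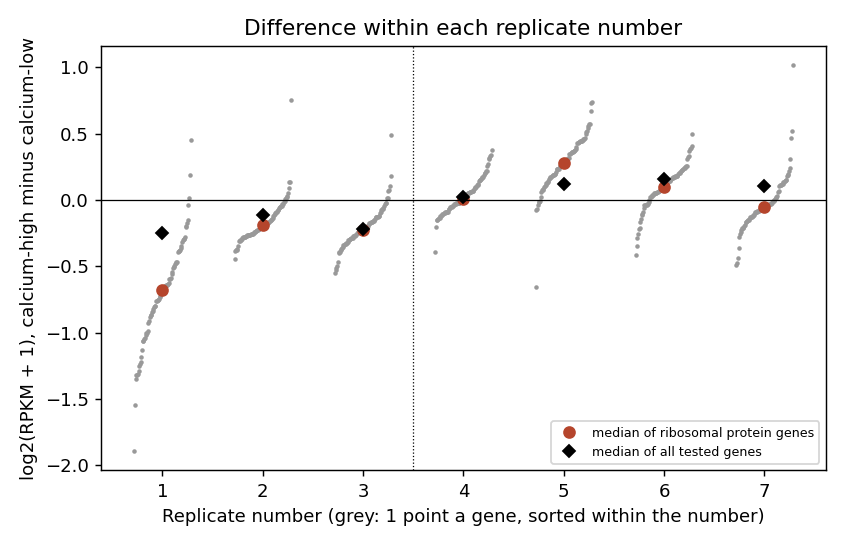
Difference between the calcium-high and calcium-low library of each replicate number, in log2(RPKM + 1): grey points are the 81 ribosomal protein genes, the red circle their median and the black diamond the median of all tested genes. The members' median is lowest in pair 1, at -0.68, and highest in pair 5, at 0.28.

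Libraries with extreme levels of the members fell in these pairs. The median member stood at 250 RPKM in calcium-low replicate 1, where the other calcium-low libraries had 162 to 198 RPKM, and at 252 RPKM in calcium-high replicate 5, where the other calcium-high libraries had 147 to 213 RPKM. Calcium-high replicate 1, the partner in pair 1, had the lowest median of all 14 libraries, 147 RPKM. Of the 81 members, 37 had their highest value in calcium-low replicate 1 and 29 in calcium-high replicate 5, beside 20.3% and 16% of all tested genes. For 54 members the lowest value lay in calcium-high replicates 1 to 3, as it did for 38.6% of all genes. In calcium-high replicate 5, 7 monocyte and macrophage markers summed to 154 RPKM and the cell cycle markers to 27.1 RPKM, each the highest of the calcium-high libraries. In calcium-low replicate 1 the cell cycle markers summed to 26.4 RPKM, the monocyte and macrophage markers to 65.5 RPKM and the neutrophil markers to 1.88 RPKM. The part of these markers in the members' levels was not tested.

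**Figure D3:**
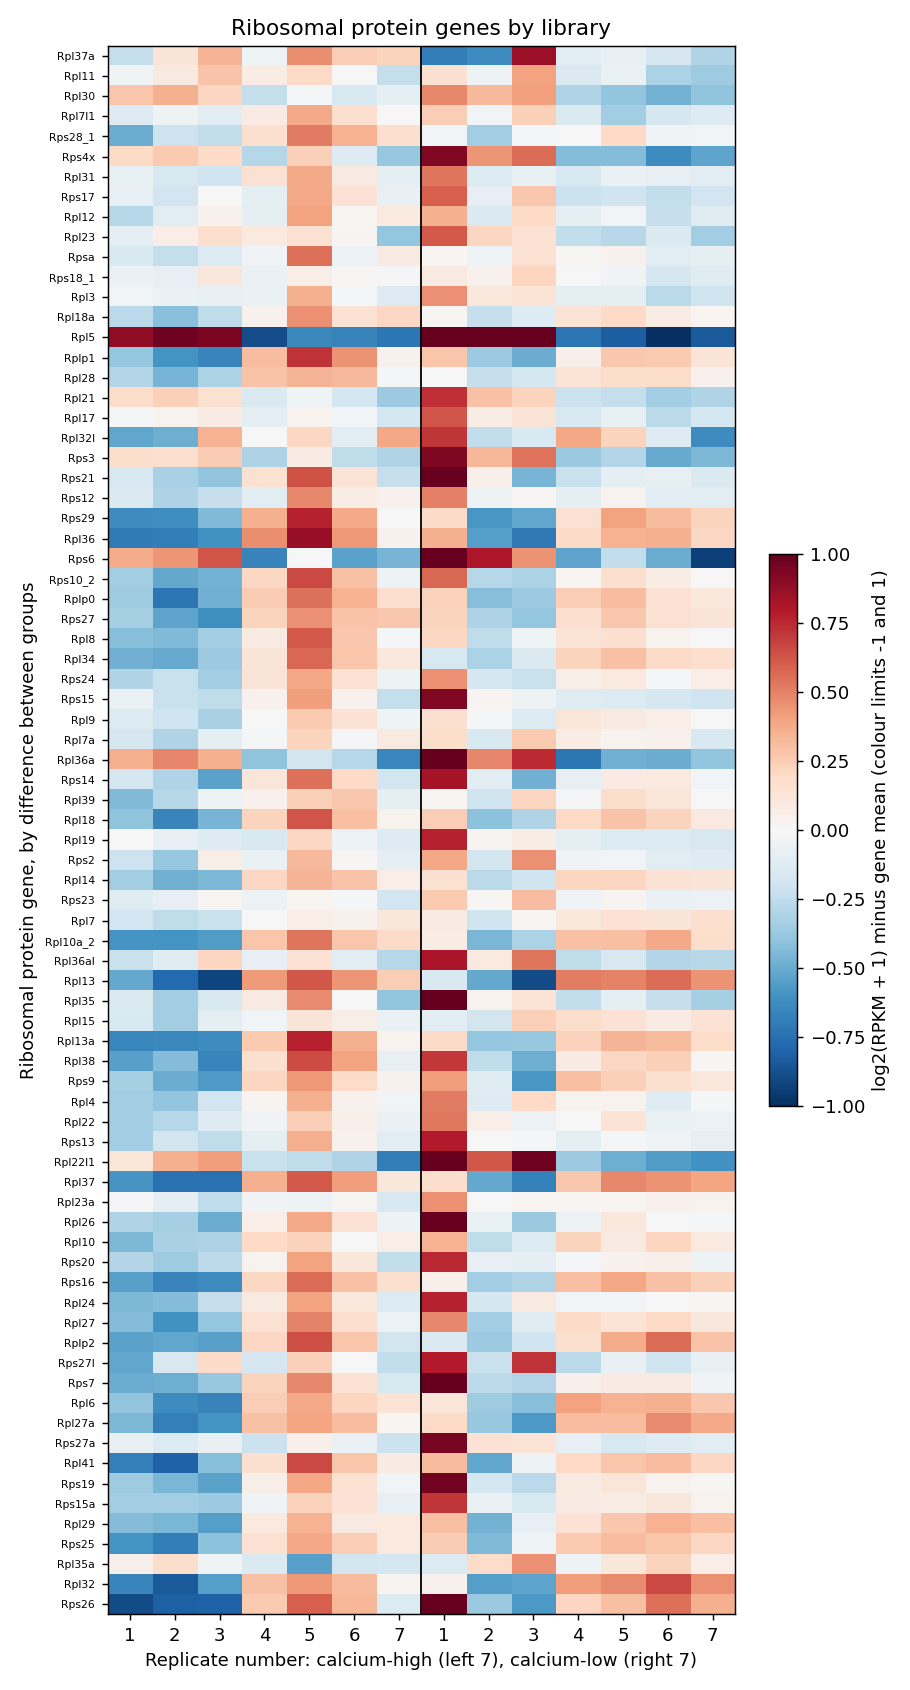
Level of 78 of the 81 tested ribosomal protein genes in each of the 14 libraries, as log2(RPKM + 1) minus the gene's mean, with genes ordered by their difference between groups and colours limited to -1 and 1. Calcium-low replicate 1 and calcium-high replicate 5 are the columns with the most high values, and replicates 1 to 3 differ from 4 to 7 in both groups.

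Across the 14 libraries, the level of a member followed that of the others to a varying degree. Pearson's r between a member and the median of the other members, on log2(RPKM + 1), had a median of 0.75, and was over 0.8 for 33 members and under 0.5 for 20. It is a description over libraries that share their scaling. The highest value was that of Rps10 (0.97, named after its values were seen). The lowest were Rpl35a (-0.61), Rpl5 (-0.46), Rpl30 (-0.23), Rps6 (-0.16), Rpl36a (-0.14) and Rpl22l1 (-0.14). Rpl30 stood at 74.2 to 112 RPKM in calcium-high and 62.9 to 123 RPKM in calcium-low libraries, and its 6 highest libraries were those of replicates 1 to 3.

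The composition of the members differed between replicates 1 to 3 and 4 to 7 in both calcium groups. The summed RPKM of large subunit genes was 1.16 to 1.33 times that of small subunit genes in replicates 1 to 3 and 1.36 to 1.54 times in replicates 4 to 7, with no overlap. In 7 members every library of replicates 1 to 3 lay above every library of replicates 4 to 7, beside 10.5% of all genes, and in 6 members below, beside 6.55%. Both counts are near the share of all genes. The genes singled out here were chosen after their values were seen, except for those named above.

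Rpl5 had the widest gap, at 214 to 280 RPKM in replicates 1 to 3 and 55.5 to 73.3 RPKM in replicates 4 to 7, a ratio of means of 3.66. Rps6 was at 7.29 to 13.4 and 2.36 to 5.45 RPKM (ratio 2.52), Rpl36a at 84.7 to 150 and 39.7 to 58.2 RPKM (ratio 2.13), and Rpl22l1 at 50.4 to 93.9 and 28.3 to 39.6 RPKM (ratio 2.09). Below stood Rpl13, at 262 to 447 RPKM against 587 to 765 RPKM (ratio 0.474). Rpl22 itself, the partner of Rpl22l1, was at 37.6 to 69.6 RPKM over all libraries with overlapping sets. Rps3a1, outside the rule, was at 405 to 750 RPKM in replicates 1 to 3 and 240 to 308 RPKM in replicates 4 to 7. For Rpl5, Rps6 and Rpl36a few 50-base windows are found in no other gene (6.16%, 15.4% and 14.5%), and the part of shared reads in these gaps was not tested.

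**Figure D4:**
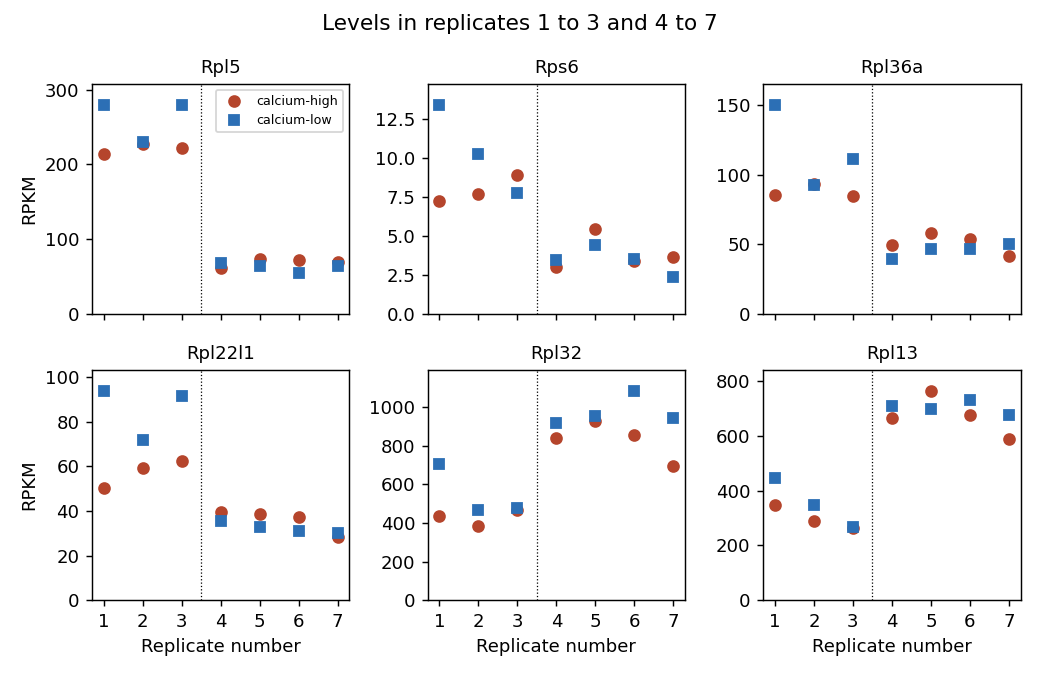
RPKM of Rpl5, Rps6, Rpl36a, Rpl22l1, Rpl32 and Rpl13 in each library by replicate number, calcium-high as red circles and calcium-low as blue squares, with a dotted line between replicates 3 and 4. Rpl5 stays at or above 214 RPKM before the line and at or below 73.3 RPKM after it, in both calcium groups.

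Whether the calcium effect on a member differed between the sets was tested as an interaction. By limma 0 of 81 members had an interaction at an adjusted p under 0.05, as did 0% of all genes. At an unadjusted p under 0.05 there were 40 members, all with a more positive difference in replicates 4 to 7, beside 28.1% of all genes more positive and 0.544% more negative. The interaction was positive for 80 of 81 members, beside 89.9% of all genes, with a median of 0.46 beside 0.31. After scaling by the median of ratios, which removes the shift shared by all genes, it was positive for 50 of 81 with a median of 0.07, beside 0.00 for all genes. With the replicate block 0 members passed, beside 1.54% of all genes more positive and 0.121% more negative. At an unadjusted p under 0.05 there were then 53 members, all more positive, beside 36.8% and 0.766% of all genes. Rpl22l1 and Rps4x came nearest (adjusted p = 0.053 for both, limma with the block). The count depended on calcium-low replicate 2: without it the interaction was called in 24 members, beside 18.9% of all genes, and with the block and without replicate 2 in 15, beside 16.2%.

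In replicates 4 to 7 alone, 2 members were called higher in calcium-high by limma, where 6.36% of all genes were called higher and 1.78% lower. Rpl37a was at 164 to 232 RPKM in calcium-high and 137 to 160 RPKM in calcium-low libraries, and these 4 against 4 libraries did not overlap; the difference was 0.38 (adjusted p = 0.049). Rpl7l1 was at 8.11 to 10.9 RPKM against 6.16 to 7.36 RPKM, also without overlap, with a difference of 0.35 (adjusted p = 0.0468). In replicates 1 to 3 alone limma called 0 members, beside 0% of all genes, and the difference of Rpl7l1 was -0.25. There 6 members, all lower, had an unadjusted p under 0.05, beside 11.4% of all genes lower and 0.171% higher. Of the 81 estimates 80 were negative in these libraries, with a median of -0.35 beside -0.20 for all genes. In replicates 4 to 7 alone 64 of 81 were positive, with a median of 0.11, as in all genes.

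Genes that share the TOP motif or act on ribosomal proteins were taken from 4 lists, of which limma called 0 genes with or without the block. Other fits called a few of the 24 tested TOP genes and 75 tested mitochondrial ribosomal protein genes. By limma-voom it was 1 of each, beside 5.51% of all genes higher and 2.11% lower. In replicates 4 to 7 alone 1 and 2 were called higher, beside 6.36% of all genes. The interaction with the block was called in 1 and 5, beside 1.54% of all genes more positive and 0.121% more negative. Of 25 further names of TOP genes of translation, 24 were tested, and the other is an older name of a tested gene. Of the 24 genes, 21 had a negative estimate, beside 57.8% of all genes, with a median of -0.12 beside -0.03. At an unadjusted p under 0.05, 1 (Vim) was lower, beside 3.57% of all genes, and 2 with the block, beside 8.04%. Vim, an intermediate filament gene counted among TOP mRNAs, had the smallest p of the 4 lists. It was at 23.6 to 58.2 RPKM in calcium-high, median 33.7, and 38.4 to 55.7 RPKM in calcium-low libraries, median 51.6. Its difference was -0.52 ± 0.16 (SE; limma adjusted p = 0.395, and 0.0913 with the block). The RNA-binding protein gene Hnrnpa1 (-0.28, adjusted p = 0.869) and Tpt1 (-0.16, adjusted p = 0.929) followed.

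Of 24 genes of the mTOR, Larp1 and S6 kinase control of TOP mRNAs, 23 were tested. Of these, 13 had a negative estimate, beside 57.8% of all genes, with a median of 0.00 and 0 unadjusted p values under 0.05. Cnbp, which binds TOP mRNAs, had -0.17 (limma adjusted p = 0.929) and was lower in all 7 pairs, as were 3.02% of all genes. Rheb, the activator of mTOR, had -0.14 (limma adjusted p = 0.975), and the cap-binding protein gene Eif4e had -0.17 (adjusted p = 0.991). A list of 17 names held genes that chaperone ribosomal proteins or act when they are in excess. Of these names 16 were tested, and the other is an older name of a tested gene. Of the 16 genes, 12 had a negative estimate, beside 57.8% of all genes, with a median of -0.11. At an unadjusted p under 0.05, 1 (Zfp622) was lower, beside 3.57% of all genes, and 2 with the block, beside 8.04%. Zfp622, which acts late in the maturation of the large subunit, was at 2.11 to 3.85 RPKM in calcium-high and 2.72 to 5.18 RPKM in calcium-low libraries. Its difference was -0.34 (limma adjusted p = 0.594, and 0.121 with the block). Like Cnbp it was lower in all 7 pairs, as were 3.02% of all genes. Sbds, the gene of Shwachman-Diamond syndrome, had -0.20 (adjusted p = 0.815), and Ltv1 -0.22 (adjusted p = 0.831).

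The ribosomal proteins of the mitochondrion, which serve a separate ribosome, were also mostly on the negative side, as were genes in general; the 2 sets were not tested against each other. Of 77 genes 75 were tested, and 60 had a negative estimate, beside 57.8% of all genes, with a median of -0.06. At an unadjusted p under 0.05, 4 were lower, beside 3.57% of all genes, and 8 with the block, beside 8.04%. The smallest p values were those of Mrps30 (-0.30, limma adjusted p = 0.630), Mrpl20 (-0.39, adjusted p = 0.698) and Mrpl54 (-0.41, adjusted p = 0.728). In pair 1 the median of the mitochondrial genes was -0.49 and that of the cytosolic genes -0.68. In pair 3 the medians were -0.43 and -0.23.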

How the data were processed

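RNA of 14 libraries, 7 a group, was measured by RNA-seq. The authors deposited 1 table per library without a named unit; its values were read as RPKM, and GRCm38, mm10 and edgeR are named, with no role, in the submitters' processing notes. The aligner and the handling of multiply matching reads are not given in the sources used here. Values of a gene were whole multiples of what 1 read is worth: 9919 of 9921 tested labels gave whole reads within 0.02, against 0 of 300 jittered genes. Of 48737 labels a table, 23 were serial numbers in replicates 4 to 7, which left 48714.

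From these values limma 3.58.1 (R 4.3.3, trended variance) was fitted on log2(RPKM + 1) to the 9921 labels with a mean of at least 1 RPKM, calcium-high minus calcium-low, with Benjamini-Hochberg adjustment over all of them and calls at 0.05. The pseudocount of 1 shrinks differences of low genes. The scripts were tested on simulated data. Tables were summarised with Python 3.11.15, pandas 2.3.3 and numpy 2.4.6. Precision follows depth: a tested member held 8 to 26053 reads in a library.

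The members, gene lists and tests were chosen with earlier results of these data known. Genes named are members with extreme levels or the smallest p values, paralog pairs, stalk proteins, members of known roles and the 3 smallest p values of each list. A few members are counted but not reported here by name. Replicate numbers, taken from the titles, were used to pair the libraries. In all 7 pairs the genes' deviations from their group's mean correlated (r of 0.384 to 0.715), which includes the difference between replicates 1 to 3 and 4 to 7. Within these sets r was 0.276 to 0.552 for numbers 1 to 3 and -0.0647 to 0.123 for numbers 4 to 7. Within its set, a library correlated best with its own number in the other group, from both sides, for numbers 3 and 4. For numbers 1, 2 and 5 this held from 1 side only, and for 6 and 7 from neither. The values thus do not establish pairing by number in replicates 4 to 7, and do so only in part in 1 to 3. Alternatives were the replicate block, other scalings, pseudocounts of 0.1 and 5 and no filter. Further ones were limma-voom on the reads with library quality weights, the library set as a term or alone, and leaving out libraries. The design had named edgeR for files of counts, and it was not run because the files held RPKM. Coordinates and gene types come from GENCODE annotation and RefSeq start windows, both of GRCm38.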

Additional observations from a re-analysis of the deposited data

Results flagged for a closer look

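For each gene reported by name and for the members' median level, the highest and lowest library of a group of 7 was compared with its neighbour by the share of the group's range that lies between them. This marked 16 of 112 group values. The mark is set so that about 1 in 20 groups of independent, normally spread values would carry it. The genes share the same 14 libraries and some were named for extreme values, so no excess can be read from the count. In calcium-low replicate 1 the high values were Rpl22 at 69.6 RPKM, Rpl23a at 594 RPKM, Rps12 at 1190 RPKM, Rps14 at 647 RPKM, Rps15a at 48.1 RPKM, Rps19 at 258 RPKM and Rps27a at 321 RPKM, and with them the median member at 250 RPKM. In calcium-high replicate 5 they were Rpl3 at 342 RPKM, Rps12 at 1172 RPKM and Rpsa at 448 RPKM. In calcium-low replicate 3, the library with high neutrophil and cell cycle markers, Rpl37a stood at 305 RPKM, Eif4e at 8.32 RPKM and Rheb at 10 RPKM. Mrps30 was low in calcium-low replicate 2, at 5.15 RPKM. Rpl39l was above 0 in calcium-low replicate 7 alone, at 0.125 RPKM, so the gap was its whole range.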

How the results depend on the processing

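The count of 0 ribosomal protein genes called in either direction held under the replicate block, median-of-ratios and upper-quartile scaling, pseudocounts of 0.1 and 5, no filter, limma-voom and the library set as a term. It was 2 higher in replicates 4 to 7 alone and 0 to 1 when libraries or pairs were left out. Over all genes the count called higher was 48 with the replicate block, 4 with median-of-ratios scaling, 3 with upper-quartile scaling, 216 with the block and median of ratios together, 1 without a filter, 547 by limma-voom, 22 with the set as a term, 631 in replicates 4 to 7 alone and 78 without both libraries of replicate 3. The count called lower was 43 with the block, 72 with block and median of ratios, 209 by limma-voom, 29 with the set as a term, 177 in replicates 4 to 7 and 41 without replicate 3. Leaving out libraries or pairs gave 0 to 164 genes higher, 0 to 138 lower (10 with the block and without pair 5) and 0 to 24 members with an interaction (15 with the block and without pair 2). The cause of these shifts was not tested. The replicate block changed no call of a member. Of the 39 tested members under the rule for named genes, limma-voom changed the sign of 14 estimates, replicates 4 to 7 alone of 20 and replicates 1 to 3 alone of 7, none of them called in the fit of all libraries. With 7 libraries a group, differences smaller than the intervals given were not detectable, and reads that match copies elsewhere limit the levels of genes with few windows of their own.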
